A study of Mus musculus with 6 samples.

Results

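Expression of the angiotensin-converting enzyme Ace, of angiotensinogen, Agt, and of the type 2 angiotensin receptor, Agtr2, was measured in soleus muscle of control C57Bl/6 mice on 6 arrays. The 3 genes are those members of the renin-angiotensin system that were taken by name from the platform annotation. They were 3 of the 203 named genes on the array, and each was read by 1 of its 223 probes. The labels describe every sample as a control mouse, number them 1 to 6, and give 3 µg of total RNA from muscle cryosections for each. The titles add the codes HUR and wt, which the labels do not explain. Neither age nor sex is given, nor whether each array came from a separate mouse, so the spread between the samples may be partly technical. All 6 samples form 1 group with no comparison between treatments.

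The renin-angiotensin system is a hormone cascade that sets blood pressure and salt balance, and many tissues transcribe some of its genes locally. Agt encodes the precursor protein, which renin cuts to angiotensin I. Ace, a protease on the surface of endothelial cells, turns angiotensin I into angiotensin II. The type 1 receptor carries most of the vasoconstrictor effects of angiotensin II, while the type 2 receptor, Agtr2, often opposes them and is known for high expression in fetal tissue and low expression in most adult tissue. A message for Agt, Ace or Agtr2 in whole muscle can come from fibres, vessels, nerves or connective tissue. In such bulk samples fewer cells of a type and less RNA per cell cannot be told apart.

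The sequences just before the annotated transcription starts are shown to set out what the 3 promoters have in common and where they differ. They come from the RefSeq promoter table of build GRCm38.p6, in which all 3 genes were found. Each runs 5′ to 3′ on the gene's strand over the 60 bases that end at the base before the start, and capitals mark a match to TATAA on either strand.
Ace, at chr11:105967888-105967947, plus strand: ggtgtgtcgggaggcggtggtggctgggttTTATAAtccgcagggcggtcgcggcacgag
Ace, internal start, at chr11:105975129-105975188, plus strand: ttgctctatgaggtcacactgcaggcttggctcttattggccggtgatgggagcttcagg
Agt, at chr8:124569707-124569766, minus strand: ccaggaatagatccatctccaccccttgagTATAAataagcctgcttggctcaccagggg
Agtr2, at chrX:21484564-21484623, plus strand: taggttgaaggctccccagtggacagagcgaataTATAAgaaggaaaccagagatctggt
TATAA began 29 bases before the first Ace start, 30 before the Agt start and 26 before the Agtr2 start, and these letters were not in the window of the internal Ace start. At Ace the match on the plus strand overlaps one on the minus strand, TTATA. Of 32851 promoter windows of this length in the table, 7.25% held TATAA on either strand. The G and C content of the window was 66.7% at the first Ace start, 51.7% at Agt and 46.7% at Agtr2, against a median of 55% over the table. The internal Ace start is known to serve a shorter form of the enzyme made in testis. The position of the array probe in the Ace message is not given in the sources used here, so the values do not tell the forms apart.

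The deposited values were linear intensities, and each array held some that were negative. How far the lowest value of an array lay under 0 was taken as the noise bound of that array. Values smaller than the bound are not measured reliably in size. The bounds of controls 1 to 6 were 0.0034, 0.0062, 0.0033, 0.0087, 0.0023 and 0.0018, a range of 4.83-fold. The number of probes above the bound was lowest in control 2, with 109, and highest in control 6, with 166. The labelled tissue was checked against muscle markers, and each of the 7 muscle fibre genes of the marker list exceeded the bound on every array. These were the slow myosin Myh7, myoglobin Mb, Myh2, Myh1, Myh4, Des and Ttn. Their narrowest margin was 29.4 times the bound, for Myh4. The bound was exceeded on every array by 47.5% of all 223 probes. This check is for muscle and cannot tell soleus from other muscles.

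Ace was detected on every array. Its intensities in controls 1 to 6 were 0.0152, 0.0118, 0.0197, 0.0565, 0.0139 and 0.0120. These were 4.47, 1.90, 5.97, 6.49, 6.04 and 6.67 times the bound of the same array, so the margin was narrowest in control 2, the array with the fewest probes above its bound. Of all 223 probes, 47.5% exceeded the bound on every array, and of the 3 genes only Ace was among them.

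Agt was at the edge of detection. Its intensities were 0.0028, -0.0005, 0.0038, 0.0106, 0.0041 and 0.0022 in controls 1 to 6. The value in control 1 was 0.824 times the bound and the value in control 2 was below 0. In controls 3, 4, 5 and 6 Agt stood at 1.15, 1.22, 1.78 and 1.22 times the bound, so the precursor gene was above it on 4 arrays and by less than a factor of 2 on each. Over all probes, 67.7% were above the bound on at least 4 arrays. With the bound set 2 times higher, Agt was above it on 0 arrays, while Ace and Agtr2 were still above it on 5 arrays each. The share of all probes above this higher bound was not taken.

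Agtr2 was detected on 5 arrays and missed on 1. Its intensities were 0.0005, 0.0146, 0.0226, 0.0373, 0.0318 and 0.0367 in controls 1 to 6. In control 1 the value was 0.147 times the bound. In controls 2 to 6 it was 2.35, 6.85, 4.29, 13.8 and 20.4 times the bound, so the 2 widest margins of any of the 3 genes were those of the receptor in controls 5 and 6. Over all probes, 58.3% were above the bound on at least 5 arrays. The table was deposited to 4 decimals, so rounding alone leaves the value in control 1 uncertain by 10% either way.

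**Figure D1:**
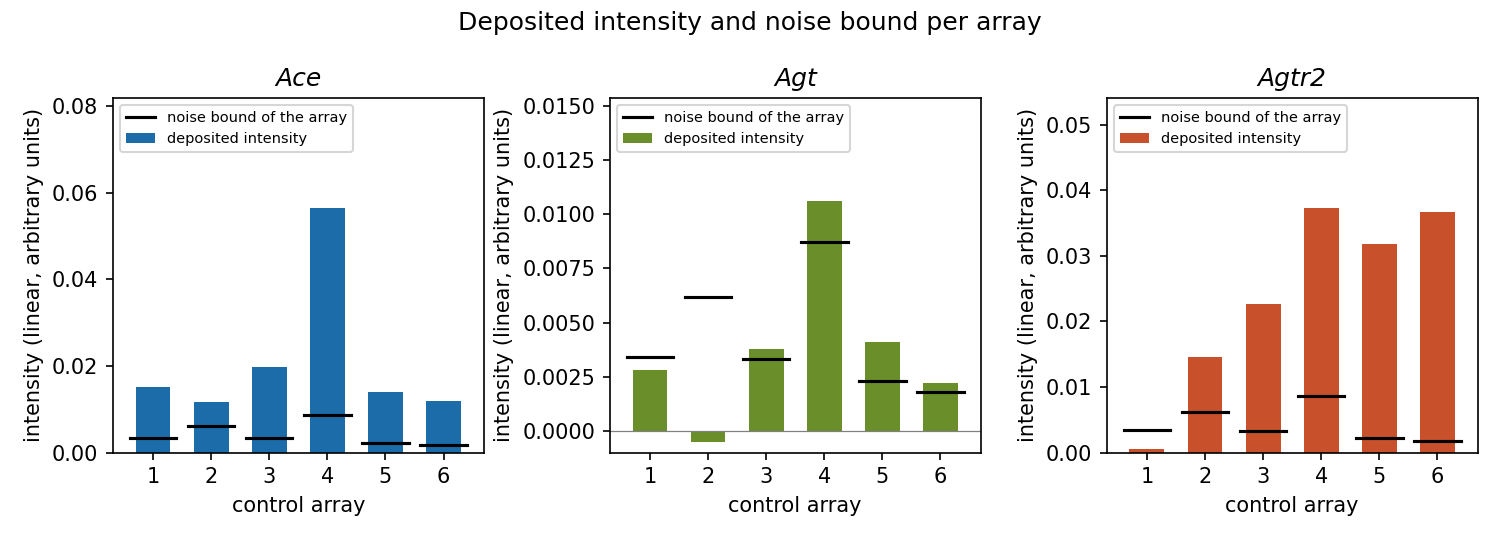
Bars give the deposited intensity (linear, arbitrary units) of Ace, Agt and Agtr2 on each control array, and the black line across each bar is the noise bound of that array. The vertical scale differs between panels. Ace stands above the line on all 6 arrays, Agt on 4 by a small margin, and Agtr2 on 5 but not in control 1.

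The arrays differed in overall brightness, and between the brightest array and those numbered 3, 5 and 6 Ace stayed closer to the median gene than Agtr2 did. Array medians, taken over the 152 genes and unnamed probes that were above 0 on all 6 arrays, were 0.0161, 0.0143, 0.0241, 0.0593, 0.0205 and 0.0161, a range of 4.15-fold. Between control 4, the brightest array, and control 6, Ace differed 4.71-fold and Agt 4.82-fold, close to the median gene, which differed 4.16-fold. Agtr2 differed 1.02-fold, and 3 of the 152 had a smaller ratio. Between controls 4 and 5 the ratio was 4.06 for Ace, 2.59 for Agt and 1.17 for Agtr2, against 3.40 for the median gene, with 7 genes below Agtr2. Between controls 4 and 3 it was 2.87 for Ace, 2.79 for Agt and 1.65 for Agtr2, against 2.81 for the median gene. Over controls 3 to 6, where the 3 genes were all above the bound, the deposited intensity of Agtr2 therefore varied less than that of Ace or Agt, at 1.65-fold against 4.71-fold and 4.82-fold. Once array brightness is taken out this order turns round.

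Levels were next expressed as log2 of the intensity over the array median. The level of Ace was -0.08, -0.28, -0.29, -0.07, -0.56 and -0.42 in controls 1 to 6, a mean of -0.28 ± 0.19 (SD, n = 6). Ace was highest in controls 4 and 1 and lowest in controls 5 and 6, and its whole range was 1.41-fold. Its SD was the seventh smallest among the 152, whose median SD was 0.54. Among the 105 genes and unnamed probes above the bound on all 6 arrays it was also the seventh smallest, with a median SD of 0.45. The steadiness of Ace was known when it was chosen, so these ranks describe the gene and were not tested. Without centring of the arrays its SD was 0.85.

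Agt had levels of -2.52 in control 1, where it was below the bound, and of -2.66, -2.48, -2.32 and -2.87 in controls 3 to 6. No level exists for control 2, where the bound stood at -1.21 and so allows any value up to that. Over the 5 arrays above 0 the mean was -2.57 ± 0.20 (SD, n = 5) and the range 1.46-fold. Agt was highest in control 5 and lowest in control 6, which are the arrays with the lowest levels of Ace. With the medians taken again over the 169 genes and unnamed probes above 0 on those 5 arrays, the SD of Agt was 0.16, the eighth smallest, and that of Ace 0.21. With control 2 entered at its bound the SD of Agt was 0.59, and this larger value is set by the noise of that array.

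Agtr2 had levels of 0.03, -0.09, -0.67, 0.63 and 1.19 in controls 2 to 6, a mean of 0.22 ± 0.71 over these 5 arrays (SD, n = 5) and a range of 3.64-fold. In control 1 its level was at most -2.24, the noise bound. The receptor was thus lowest in control 1 and next lowest in control 4, the arrays in which Ace was highest, and it was highest in controls 6 and 5, the arrays in which Ace was lowest. Each array gave a single value per gene, so whether neighbours in this order differ beyond measurement error cannot be said. Among the 152 genes and unnamed probes on the 5 arrays without control 1, 79.6% had a smaller SD than Agtr2, and 5.92% had a smaller SD than Ace. With control 1 at its deposited value the SD of Agtr2 was 2.23 and 98.7% were smaller. With that value raised to the bound it was 1.19. The exceptional rank of the receptor thus rested on control 1. On the other arrays its spread was wider than the median SD of 0.45 but not among the widest of the 152. These include genes below the bound on some arrays, and the rank of Agtr2 without such genes was not taken.

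**Figure D2:**
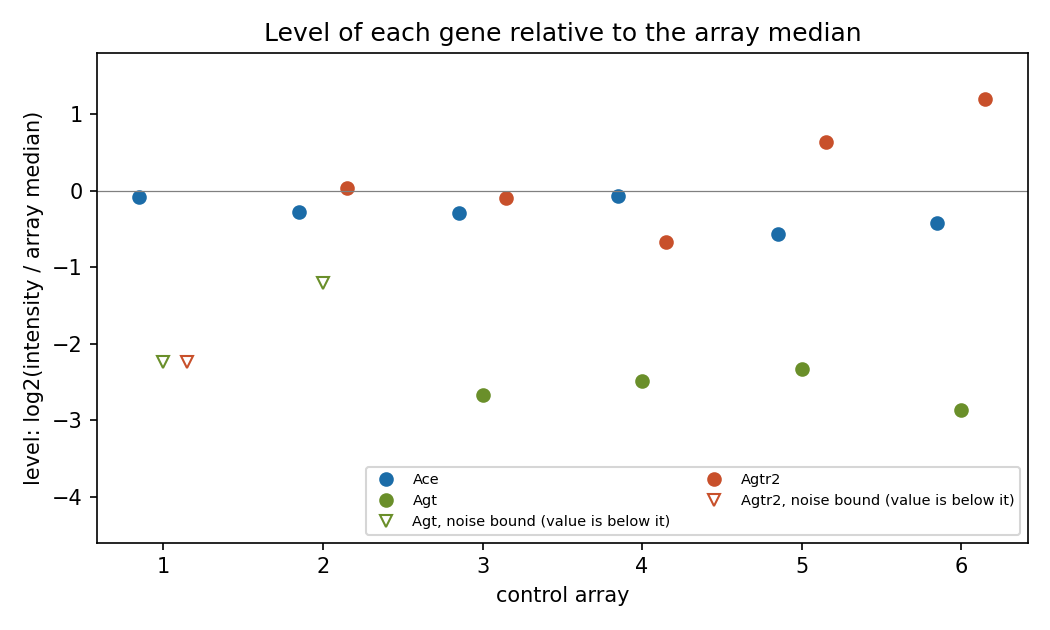
The level, log2 of intensity over the array median, is drawn for Ace, Agt and Agtr2 on each control array. Filled circles are values above the noise bound, and open triangles mark the bound where the value lay below it, so the true level is at or under the triangle. Ace keeps within -0.56 to -0.07, while Agtr2 reaches 1.19 in control 6, and gaps between genes carry the affinity of each probe.

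**Figure D3:**
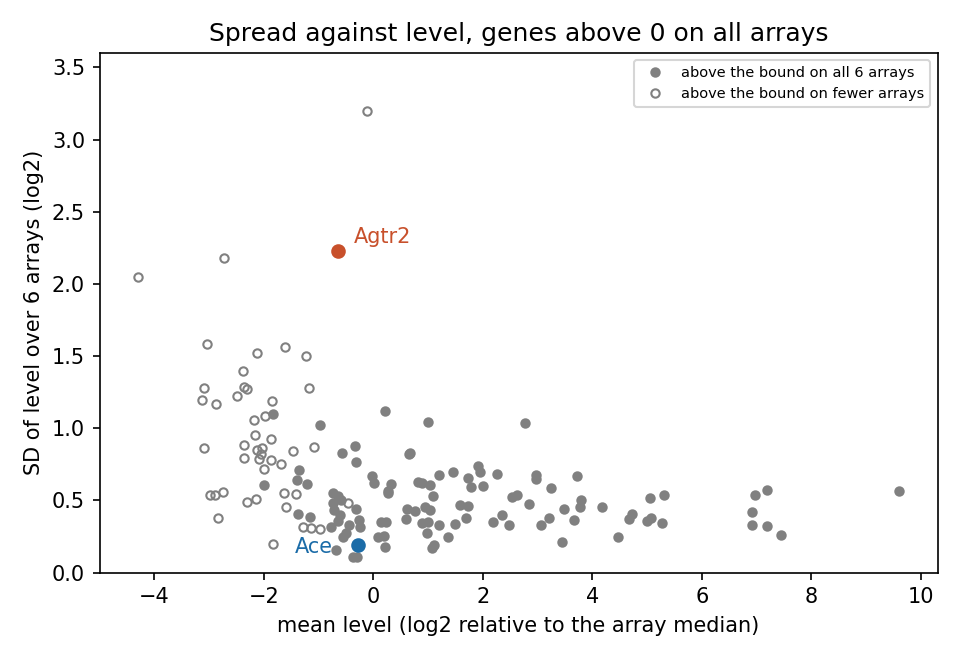
Each point is 1 of the 152 genes and unnamed probes above 0 on all 6 arrays, with its mean level across and the SD of its level over the arrays upward, both in log2 units. Ace, with an SD of 0.19, sits at the lower edge and Agtr2, with 2.23, near the top at a similar mean level. The point of Agtr2 uses its deposited value in control 1, which lay below the noise bound. With that value raised to the bound the SD was 1.19, and over the arrays above the bound it was 0.71. Agt is not drawn because it was below 0 in control 2.

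Ratios within an array need no scaling between arrays. Their size carries the affinities of both probes, so only their differences from array to array can be read. The ratio of Agtr2 to Ace was 1.24, 1.15, 0.66, 2.29 and 3.06 in controls 2 to 6. In control 1 it was at most 0.224. The ratio was highest in control 6, which lay 4.63-fold above control 4 and at least 13.7-fold above control 1. On the log2 scale its SD was 0.87 over the 5 arrays on which both genes were above the bound, and 1.35 over all 6 with control 1 at its limit.

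The ratio of Agt to Ace was much steadier where it could be measured. It was 0.193, 0.188, 0.295 and 0.183 in controls 3 to 6, with both genes above the bound. In control 1 the deposited values gave 0.184 and the bound allows at most 0.224. In control 2 the ratio was at most 0.525. In controls 3, 4 and 6 the precursor stood at nearly the same fraction of the enzyme's intensity, 0.183 to 0.193. Agt was there only 1.15 to 1.22 times the bound, and control 5 stood 1.61-fold above control 6. The SD of the log2 ratio was 0.33 over the 4 arrays with both genes above the bound and 0.30 over the 5 with both above 0. Over the same 4 arrays the SD of the level of Agt was 0.23, so its ratio to Ace was no steadier than its level.

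The ratio of Agtr2 to Agt was 5.95, 3.52, 7.76 and 16.7 in controls 3 to 6. In control 2 it was at least 2.35, and in control 1 both genes were below the bound, so no ratio can be given. The range over the 4 measured arrays was 4.74-fold, close to that of Agtr2 over Ace. The SD of the log2 ratio was 0.94 (n = 4).

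**Figure D4:**
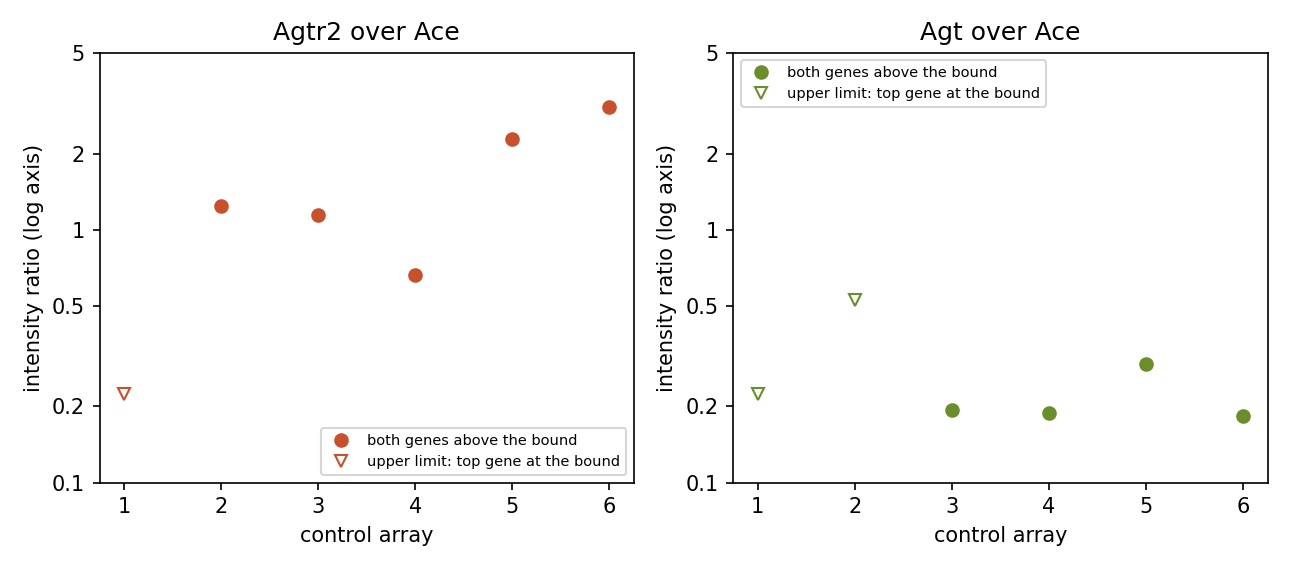
Intensity ratios of Agtr2 over Ace and of Agt over Ace are drawn for each control array on a log axis. Filled circles have both genes above the noise bound, and open triangles are upper limits with Agtr2 or Agt set at the bound. The receptor ratio covers 0.66 to 3.06 where measured, and the precursor ratio 0.183 to 0.295.

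Across the 6 arrays the levels of Agtr2 and Ace ran in opposite directions without passing the test after adjustment. With values below the bound set at the bound, Pearson's r was -0.82 (exact two-sided permutation p = 0.0458, adjusted p = 0.138 over 3 relations) and Spearman's rho was -0.83 (exact p = 0.0583, adjusted p = 0.175). Leaving out controls 4 and 5, whose Ace levels were farthest from the median, gave an r of -0.995. That value rests on controls 1, 2, 3 and 6 only, and Agtr2 in control 1 entered at the bound, -2.24. The relation passed the exact permutation test with the array median taken over probes above the bound on all arrays (r = -0.87, adjusted p = 0.0333) or without the dimmest 0.25 of the genes (r = -0.87, adjusted p = 0.0208). Over the other alternatives that scale the arrays, the adjusted p of the exact permutation test ran from 0.125 to 0.475. The value of r was 0.29 without centring, where both genes carry array brightness (adjusted p = 0.721 in the exact permutation test). Controls 5 and 6, with the highest Agtr2 and the lowest Ace, had 163 and 166 probes above the bound, the most, and the smallest share of their summed intensity in the 10 brightest probes, 76.2% and 76.6%. The other arrays kept that order only in part. Control 1, with the lowest Agtr2, had 143 probes and 81.3%. Only control 2 had fewer probes and a larger share. Control 2, with 109 probes and 83.9%, had the third highest level of Agtr2, and control 4, with 155 probes and 78.4%, the second lowest. The part of these measures in the relation was not tested. The labels give no batch, so the relation could not be repeated within one.

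Over all 6 arrays neither relation of the precursor passed the exact permutation test. Agt entered at the bound in controls 1 and 2, so these values cannot decide whether it follows the other members. For Agt and Ace r was 0.12 (exact permutation p = 0.828, adjusted p = 0.828) and rho was 0.31 (exact p = 0.564, adjusted p = 0.564). For Agtr2 and Agt r was -0.18 (exact permutation p = 0.692, adjusted p = 0.828) and rho was -0.37 (exact p = 0.497, adjusted p = 0.564). Without control 2, r was 0.15 for Agt and Ace and -0.74 for Agtr2 and Agt (adjusted p = 0.808 and 0.2375 in the exact permutation test). Without the arrays farthest from the median, r was 0.31 for Agt and Ace, with controls 4 and 5 left out, and -0.43 for Agtr2 and Agt, with controls 2 and 6 left out. In the values over all 6 arrays and in the value of 0.31, Agt entered at the bound in controls 1 and 2. In those of 0.15, -0.74 and -0.43 it entered at the bound in control 1. Agtr2 stood at the bound in control 1 as well.

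The genes whose levels over the 6 arrays were most like those of Ace were the metalloproteinase inhibitors Timp1 (r = 0.91, rho = 0.83) and Timp3 (r = 0.90, rho = 0.94) and the pyruvate dehydrogenase subunit Pdha1 (r = 0.89, rho = 0.83). All were above the bound on all 6 arrays. The exact permutation p for r was 0.0139, 0.00972 and 0.0139, and adjusted over the 151 genes and unnamed probes compared it was 0.262 for each. The exact p for rho was 0.0583, 0.0167 and 0.0583, with adjusted p of 0.330 for each. Without control 5, the array farthest from the median of Ace, r was 0.84, 0.86 and 0.76. Without controls 4 and 5, the 2 farthest, it was 0.90, 0.85 and 0.91. The genes were picked by their r over arrays that include these, so high values here are no separate test of the likeness.

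Most like Agtr2 were the mitochondrial transcription factor Tfam (r = 0.98, rho = 0.83), the tyrosine kinase Btk of blood cells (r = 0.97, rho = 0.71) and an unnamed probe (r = 0.95, rho = 0.83). Tfam was above the bound on 2 arrays and Btk on 4. These values of r use deposited intensities above 0 as they stand, and in control 1 Agtr2, Tfam and Btk all lay below the bound of that array. The deposited levels there were -4.75 for Tfam and -3.63 for Btk, each known only to be at most -2.24. The unnamed probe, above the bound on every array, had its lowest level, -1.26, in control 1. The exact permutation p for r was 0.00972, 0.0194 and 0.0125, with an adjusted p of 0.172 for each, and for rho it was 0.0583, 0.136 and 0.0583, with adjusted p of 0.388, 0.428 and 0.388. Without control 1, r was 0.78 for Tfam, 0.66 for Btk and 0.68 for the unnamed probe, and without controls 1 and 6 it was 0.86, 0.87 and 0.13. For Agt, with control 2 at its bound, the highest values were those of Kdr, a receptor for vascular endothelial growth factor (r = 0.91, rho = 0.77), the enolase Eno2 (r = 0.88, rho = 0.54) and Mb (r = 0.82, rho = 0.20). Their exact permutation p was 0.0306, 0.0264 and 0.15 for r, each with an adjusted p of 0.553, and 0.103, 0.297 and 0.714 for rho, each with an adjusted p of 0.984. Without control 2 the 3 values of r were 0.48, 0.58 and -0.61, and without controls 2 and 6 they were 0.11, -0.27 and -0.53. By this exact permutation test 0 of the genes passed after adjustment for Ace, Agtr2 or Agt. At an unadjusted exact permutation p under 0.05 there were 18 of 151 for Ace, 34 of 151 for Agtr2 and 5 of 152 for Agt. Chance alone gives up to about 1 in 20 on average, but the genes share the same 6 arrays, so the counts cannot be weighed against that rate. The test is two-sided, so the counts can include genes that run opposite to the member. The count for Agtr2 uses its deposited value in control 1, which lay below the bound, and that for Agt has control 2 at its bound.

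Of 16 other genes of the renin-angiotensin and kinin systems on the fixed list, the array carried 1, the type 1 receptor Agtr1a. Its intensities were 0, -0.0024, 0.0014, 0.0022, 0.0026 and 0.0035 in controls 1 to 6. It was above the bound in controls 5 and 6, at 1.13 and 1.94 times the bound, and below it on the other 4 arrays. The vascular tone list had 3 of its 14 genes on the array, and none was above the bound on all 6. The peptide endothelin, Edn1, was above it on 2 arrays, the inducible nitric oxide synthase Nos2 on 4 and the endothelial synthase Nos3 on 0. Nos2 reached 7.26 times the bound in control 5 and 3.5 times in control 6. Agtr1a, Edn1 and Nos2 were thus detected in controls 5 and 6, which have low bounds relative to their medians. On these arrays 163 and 166 of all 223 probes were above the bound, the most of any array. Nos2 was also above it in controls 3 and 4, at 1.36 and 1.17 times the bound.

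Markers of some of the cells that could carry these messages were present. Of the 8 endothelial genes, 5 were on the array and 4 exceeded the bound throughout, namely Cdh5, Pecam1, Flt1 and Kdr. The angiopoietin receptor Tek was above it on 5. The summed intensity of the 5 endothelial genes ran from 5.98 to 13.1 times the array median, while Ace ran from 0.677 to 0.953 times. Members of the list differed in spread, with an SD of the level of 0.18 for Kdr, 0.20 for Tek, 0.33 for Cdh5, 0.50 for Flt1 and 0.74 for Pecam1, against 0.19 for Ace. Pdgfrb, the 1 pericyte and smooth muscle marker of 5 on the array, lay between 0.589 and 0.896 times the median. The 2 fibroblast markers, read by 3 probes, summed to 3.78 to 8.85 times the median, and the adipocyte marker Fabp4 to 3.02 to 10.5 times. The fibroblast marker Fn1 had a mean level of 2.35 by 1 probe, above the bound on all 6 arrays. Its other probe was above the bound on 0 arrays, and Pdgfra, with a mean level of -2.05, on 5. The satellite cell markers summed to 0.432 to 0.979 times the median, with Myf5 above the bound on 0 arrays. None of the blood and immune markers or of the hepatocyte markers, for the main source of circulating angiotensinogen, was on the array. The part of any cell type in the values of the 3 genes was not tested.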

How the data were processed

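The authors deposited 1 table of intensities, 1 linear value per probe and array, for 223 probes and 6 control arrays. How arrays were scanned, corrected for background or scaled is not stated in the labels. No depth exists for arrays, and their number limits the precision. Probes were named through the platform annotation, which gives 1 gene for 205 probes. Intensities of probes above 0 on all 6 arrays (153, or 152 genes and unnamed probes after averaging the probes of a gene) were brought to log2 and each array was centred on its median. The noise bound is the size of an array's most negative value. Values at or below 0 entered at the bound for SDs, and for the relations among the 3 genes all values below the bound did. In the ranking of genes by likeness, values above 0 entered as deposited. Relations used exact permutation over 720 pairings, two-sided on the size of r, with Benjamini-Hochberg adjustment and a threshold of 0.05. A p-value is the share of these pairings with a correlation at least as large in size. It treats the 6 arrays as separate samples, and the labels do not say whether each came from a separate mouse. Alternatives were other bounds, centrings, quantile normalization, a pseudocount of 0.0018 and each replicate left out. The text names the 3 members, the 3 genes most like each by r, and the genes of fixed lists. Members and lists were chosen with earlier results of these data known. Python 3.11.15, pandas 2.3.3 and NumPy 2.4.6 were used, and the code was tested on simulated data.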

Additional observations from a re-analysis of the deposited data

Results flagged for a closer look

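Values were examined for a sample far from the others in 12 sets, which were the intensity, the intensity over the noise bound and the level of each gene, and the 3 log2 ratios. In 4 of them the gap of 1 sample to its nearest neighbour, as a share of the whole range, was above Dixon's 95% critical value. Chance exceeds that value in about 1 of 20 separate sets. The 12 sets share values and the genes were chosen with their spread known, so the 4 flags cannot be weighed against that rate. The Ace intensity of 0.0565 in control 4 had a gap share of 0.823, and relative to its array median Ace in control 4 was at 0.953 against 0.677 to 0.944 on the other arrays. The Agtr2 level of -5.01 in control 1 had a gap share of 0.70, and the log2 ratio of Agtr2 over Ace there, -4.93, one of 0.662. Both rest on a value at 0.147 times the noise bound, so their distance from the other arrays is known only down to the bound. The log2 ratio of Agt over Ace of -1.76 in control 5 had a gap share of 0.893 over the 5 arrays with both genes above 0, the others lying between -2.45 and -2.37.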

How the results depend on the processing

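Of the 72 values with a replicate left out, 65 kept their direction, their side of the threshold and, for SDs and counts, stayed within 1.5 times. So did 38 of the 54 values under other alternatives. Some of these could not move. Leaving out a replicate lowers a count of arrays above the bound by at most 1, which stays within that range. Raising values below the bound cannot change the SD of Ace, which had none there. The cause of each of the following moves was not tested unless the setting itself gives it. Without centring the SD of Ace was 0.85. With values below the bound raised to it the SD was 1.19 for the level of Agtr2, 1.35 for its log2 ratio to Ace and 1.42 for its log2 ratio to Agt, and with the pseudocount these were 1.42, 1.56 and 1.48, since both settings lift the value in control 1. Leaving out each replicate in turn gave SDs of 0.15 to 0.21 for Ace, 0.16 to 0.66 for Agt and 0.71 to 2.49 for Agtr2. The SDs of the log2 ratios were then 0.87 to 2.64 for Agtr2 over Ace, 0.30 to 0.67 for Agt over Ace and 1.09 to 2.53 for Agtr2 over Agt. The lowest values are those without control 1 for Agtr2 and without control 2 for Agt. With the bound 2 times higher Agt was above it on 0 arrays, and the share of all probes above that bound was not taken. The relation of Agtr2 with Ace had r of -0.87 and an adjusted p of 0.0333 in the exact permutation test with the median over probes above the bound on all arrays, -0.87 and 0.0208 without the dimmest 0.25 of the genes, 0.29 without centring, and -0.88 to -0.76 without each replicate. That of Agt with Ace was 0.74 without centring (adjusted p = 0.333 in the exact permutation test), turned to -0.035 with that median, -0.011 without the dimmest 0.25 and -0.0099 with the pseudocount, and ran from -0.16 to 0.25 without each replicate. That of Agtr2 with Agt was 0.17 without centring, 0.067 with values as deposited where above 0, and -0.74 to 0.14 without each replicate. No paired analysis was possible because all samples form 1 group. Signal close to the noise bound limits what can be said of Agt on every array and of Agtr2 in control 1.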
